A study of Huso dauricus with 9 samples.

Results

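The lysosome genes described here are the members of the KEGG lysosome pathway that were measured in the gut of the kaluga sturgeon (Huso dauricus), a large river sturgeon. They were taken from an annotated, assembled transcriptome of 59331 transcripts, in which 249 transcripts with 96 KEGG gene names carried the lysosome pathway. For each gene name the transcript with the highest mean FPKM (fragments per kilobase of transcript, scaled to the library total) was kept, among transcripts with an FPKM of at least 1 in at least 3 of the 9 libraries and with no best match to a bird, a mammal or a bacterium. All 96 gene names kept a transcript, which gave 96 members among 54200 tested transcripts. They fell by function into 13 proteases, 16 glycosidases, 9 genes of sulfate removal, 11 lipid and other hydrolases, 18 membrane proteins, 6 proton pump genes and 23 genes of enzyme sorting and vesicle coats. The sphingolipid activators PSAP and GM2A and the cholesterol carriers NPC1 and NPC2 are counted with the lipid and other hydrolases. Of the members, 86 had an FPKM of at least 1 in all 9 libraries, and 0 passed the minimum through 1 group alone.

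The study sequenced poly(A) RNA from gut tissue of sturgeon released into the Songhua River for stock enhancement. The groups are Ori (day 0 of stock enhancement), D14FL (day 14) and D30FL (day 30), with 3 libraries each, from 3 fish netted at random on that day. All fish came from 1 release and carried a fluorescent dye mark in the snout, and neither the labels nor the design text gives a genotype, strain or age. The libraries come from whole gut tissue, so fewer cells of a type and less RNA per cell cannot be told apart, and neither can time after release and anything else that changed between the sampling days. Of 12 listed enterocyte markers, 9 were matched to a transcript. VIL1 (17.2 to 75.0 FPKM) and FABP2 (302 to 4693 FPKM) were detected in every library. CDHR5 was at 0 FPKM in Ori 1, Ori 2 and Ori 3, and EPCAM, CDX1 and CDX2 had no matched transcript.

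Lysosomes are acidic organelles in which proteases, glycosidases, sulfatases and lipases break down proteins, complex sugars and lipids. The enzymes are made in the endoplasmic reticulum and reach the lysosome through mannose 6-phosphate receptors, sortilin and clathrin coats. A vacuolar proton pump acidifies the lumen, and heavily glycosylated proteins such as LAMP2 line the membrane. In zebrafish, specialised enterocytes of the hind part of the gut take up dietary protein through cubilin, amnionless and Dab2 and digest it in large lysosomes, and macrophages are a further cell type rich in these enzymes.

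Lysosomal hydrolase transcripts were abundant in 1 of the 3 fish of day 0 and in all 3 fish of day 14, and were lower in all 3 fish of day 30 than on day 14 for many of the members. The summed FPKM of the 96 members was 19229, 3380.2 and 5096 in Ori, 15876, 13919.7 and 15039 in D14FL and 5311, 5775 and 8429.6 in D30FL. Ori 1 thus stood apart from Ori 2 and Ori 3, and lay nearer to the D14FL libraries. The mean over 3 fish was highest in Ori for 13 of the 96 members (13.5%, against 23.5% of all tested transcripts), in D14FL for 68 members (70.8%, against 34.6%) and in D30FL for 15 members (15.6%, against 42.0%). Tested gene by gene with limma, 1 member passed an adjusted p of 0.05 in D14FL against Ori, where 2.77% of all tested transcripts passed. In D30FL against Ori 0 members passed (3.22% of all tested transcripts) and in D30FL against D14FL 0 passed (0.00185%).

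Ori 1 was the highest of its group for 64 of 96 members (66.7%), against 21.6% of all tested transcripts, and Ori 2 was the lowest for 74 (77.1%), against 31.7%. Every comparison with Ori below therefore spans a wide day 0 group. Total FPKM per library lay between 810895 and 929953, and between 35812 (Ori 1) and 49503 (D30FL 2) transcripts had an FPKM of at least 1. The number of reads behind each value is unknown, so no counting error can be given. Changes are on the log2(FPKM + 1) scale and are stated relative to the median change of all tested transcripts, which was 0.38 for D14FL against Ori, 0.37 for D30FL against Ori and -0.00464 for D30FL against D14FL; p-values come from limma before that subtraction.

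Proteases had the highest summed FPKM of the role groups in every library, 13566, 1222 and 1838 in Ori, 10105, 8275 and 10003 in D14FL and 2231, 2017 and 5132 in D30FL. CTSL accounted for most of the protease sum in Ori 1, in all 3 D14FL libraries, in D30FL 1 and in D30FL 3. The CTSL member (TRINITY_DN37261_c0_g1_i1_2, best match a cathepsin L1-like protein), a cysteine protease that cleaves proteins within the chain, had 10026, 530.4 and 903 FPKM in Ori, 7065, 5546 and 7211 FPKM in D14FL and 1287, 750.1 and 3797 FPKM in D30FL. It ranked 3rd of all transcripts in all 3 D14FL libraries, and 4th in Ori 1, 178th in Ori 2 and 122nd in Ori 3. Ori 1 lay above all D14FL libraries and Ori 2 and Ori 3 far below them, so the groups overlapped, whereas all 3 D30FL libraries lay below all 3 D14FL libraries. The log2 change was -2.08 (SE 0.93, limma adjusted p = 1) for D30FL against D14FL and 1.57 (SE 0.93, limma adjusted p = 0.23) for D14FL against Ori; without Ori 1, CTSL in D14FL against Ori had an adjusted p of 0.0445.

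CTSZ (TRINITY_DN31843_c0_g1_i2_3), a carboxypeptidase, had 1875, 313 and 392 FPKM in Ori, 1073, 823 and 879.9 FPKM in D14FL and 269.7, 206 and 491 FPKM in D30FL. Its pattern over the libraries was that of CTSL, with Ori 1 the highest of all and D30FL wholly below D14FL. LGMN (TRINITY_DN34904_c0_g3_i1_1), legumain, which cleaves after asparagine and processes other cathepsins, had 609.6, 79.7 and 122 FPKM in Ori, 990.3, 1038 and 1005 FPKM in D14FL and 266, 477 and 356 FPKM in D30FL. The D14FL libraries were close together and above every Ori and every D30FL library. The log2 change of LGMN was 2.09 (SE 0.60, limma adjusted p = 0.0523) in D14FL against Ori, an adjusted p just above the threshold of 0.05, and -1.50 (SE 0.60, limma adjusted p = 1) in D30FL against D14FL.

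CTSB, a cysteine protease with exo- and endopeptidase activity, had 392, 84.2 and 135 FPKM in Ori, 352, 439 and 378 FPKM in D14FL and 154, 214 and 189 FPKM in D30FL, with D30FL again wholly below D14FL. CTSD, the main aspartic protease of lysosomes, had 96.1, 43.5 and 59.9 FPKM in Ori, 99.96, 78.5 and 103 FPKM in D14FL and 56.1, 116 and 45.0 FPKM in D30FL. CTSS, a cysteine protease known from antigen-presenting cells, had 55.5, 47.4 and 41.3 FPKM in Ori, 71.8, 48.4 and 55.5 FPKM in D14FL and 37.9, 73.3 and 32.9 FPKM in D30FL. In both, the 3 groups overlapped, and D30FL 2 exceeded the other D30FL libraries. CTSF, whose best match in the protein database is named cathepsin W, was a low transcript with 7.85, 4.78 and 7.44 FPKM in Ori, 17.8, 14.99 and 18.4 FPKM in D14FL and 9.25, 25.5 and 9.91 FPKM in D30FL. Of the 13 proteases, 4 were higher in all D14FL than in all Ori libraries, where 27.8% of all tested transcripts were, and 9 were lower in all D30FL than in all D14FL libraries, where 4.46% of all tested transcripts were. Of these proteases 0 passed the adjusted test in any comparison. The shares of all tested transcripts that passed were 2.77% (D14FL against Ori), 3.22% (D30FL against Ori) and 0.00185% (D30FL against D14FL).

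**Figure D1:**
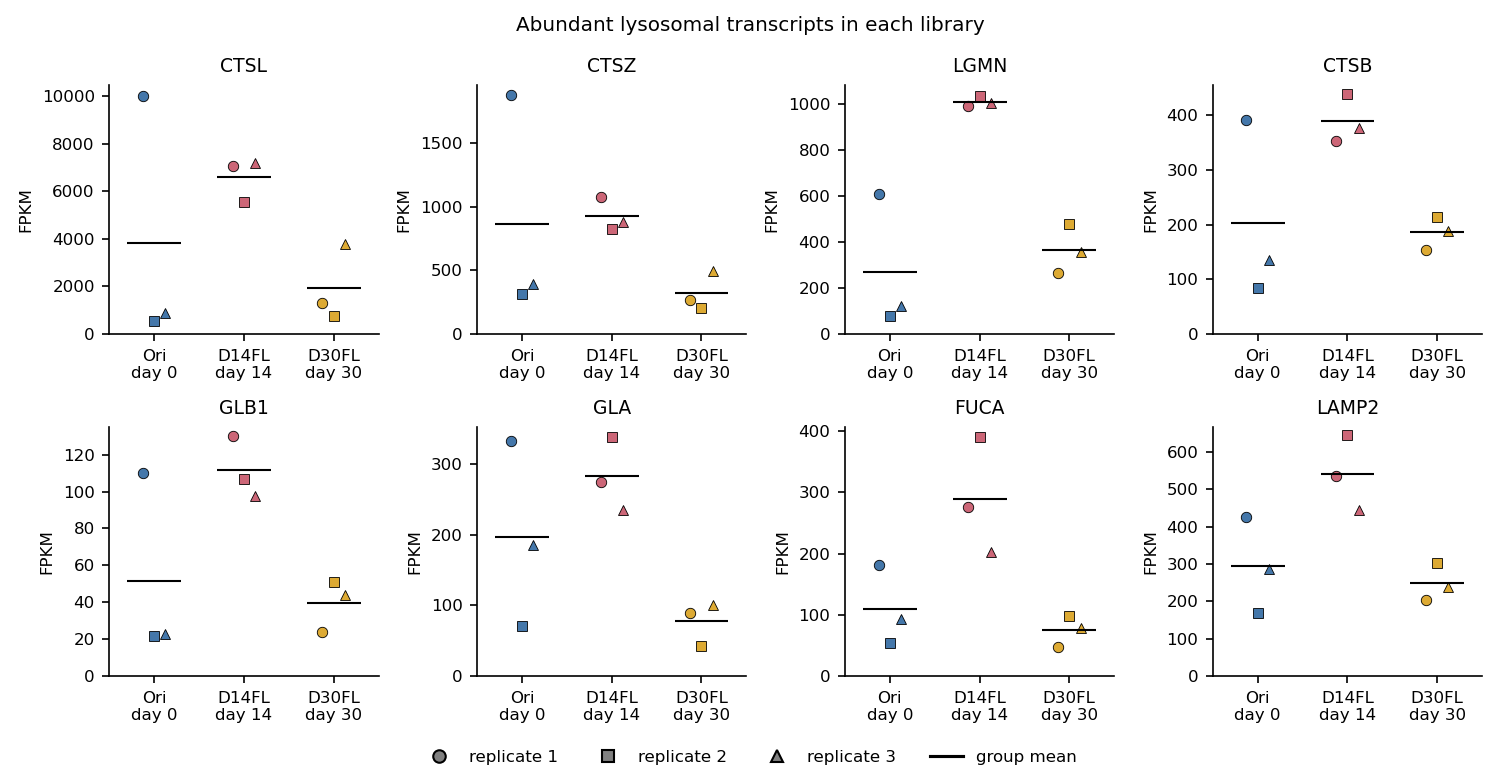
FPKM of 8 abundant lysosome members in each library, on a linear axis that starts at 0, by group in order of day, with 1 point per fish (the marker shape is the replicate number) and the group mean as a line. Ori 1 stands near or above the D14FL fish in several panels while Ori 2 and Ori 3 stand low, and all 3 D30FL fish lie below all 3 D14FL fish in every panel.

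The glycosidases strip sugars from glycoproteins, glycolipids and glycosaminoglycans. Ori 1 was the highest Ori library for 13 of the 16 and Ori 2 the lowest for 16 of 16. GLA (TRINITY_DN32262_c0_g1_i2_1), alpha-galactosidase A, had 332, 71.3 and 186 FPKM in Ori, 274, 338 and 235 FPKM in D14FL and 89.4, 42.8 and 101 FPKM in D30FL. In GLA all D30FL libraries lay below all D14FL libraries, with Ori 1 and Ori 2 on either side of that gap.

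FUCA, the tissue alpha-L-fucosidase, had 181, 54.3 and 93.4 FPKM in Ori, 276, 390.5 and 203 FPKM in D14FL and 48.2, 98.7 and 79.2 FPKM in D30FL. Its D14FL libraries were above all Ori and all D30FL libraries, with a log2 change of 1.13 (SE 0.45, limma adjusted p = 0.0879) in D14FL against Ori and -1.93 (SE 0.45, limma adjusted p = 1) in D30FL against D14FL. GLB1, the beta-galactosidase that acts on gangliosides and keratan sulfate, had 109.9, 21.8 and 22.7 FPKM in Ori, 129.9, 107 and 97.9 FPKM in D14FL and 23.8, 50.9 and 43.8 FPKM in D30FL. GLB1 was high in Ori 1 and in D14FL and low elsewhere, and D30FL lay wholly below D14FL. GAA, the acid alpha-glucosidase that degrades glycogen, had 8.18 ± 1.50 FPKM in Ori, 10.5 ± 0.624 FPKM in D14FL and 7.84 ± 1.16 FPKM in D30FL (SD, n = 3 each). GAA lay lower in all D30FL than in all D14FL libraries although the group means were close. Against D14FL, D30FL had a median log2 change of -0.95 over the 16 glycosidases, 8 of which were lower without overlap, against a background of 4.46% of all tested transcripts. Against Ori the median was -0.80, with 2 of 16 lower without overlap (background 6.14%) and 1 higher (background 20.8%).

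Sulfatases remove sulfate groups from glycosaminoglycans and sulfolipids; SUMF1, which activates them, and HGSNAT, an acetyltransferase of heparan sulfate breakdown, are placed with them here. Ori 1 was the highest Ori library for 7 of the 9 genes of this group and Ori 2 the lowest for 7.

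GALNS, which acts on keratan and chondroitin sulfate, had 31.4, 4.28 and 11.3 FPKM in Ori, 22.9, 23.9 and 22.4 FPKM in D14FL and 11.7, 10.1 and 15.1 FPKM in D30FL, with D30FL wholly below D14FL. ARSA, arylsulfatase A, had 7.42, 4.49 and 6.81 FPKM in Ori, 5.42, 4.81 and 4.02 FPKM in D14FL and 2.77, 3.22 and 4.53 FPKM in D30FL. Its groups overlapped between D14FL and Ori and between D30FL and D14FL. ARSB was near the detection minimum, with 0.884, 0.463 and 0.862 FPKM in Ori, 2.54, 1.35 and 3.23 FPKM in D14FL and 0.852, 3.02 and 0.706 FPKM in D30FL. D30FL 2 was the only D30FL library of ARSB within the range of D14FL. SUMF1 averaged 16.9 ± 8.35 FPKM in Ori, 17.0 ± 3.82 FPKM in D14FL and 12.0 ± 3.06 FPKM in D30FL (SD, n = 3 each). HGSNAT averaged 13.7 ± 2.63 FPKM in Ori, 12.7 ± 3.32 FPKM in D14FL and 10.9 ± 3.52 FPKM in D30FL. SGSH, the heparan sulfamidase, averaged 9.08 ± 1.73 FPKM in Ori, 14.5 ± 1.07 FPKM in D14FL and 12.5 ± 2.59 FPKM in D30FL. The D14FL and Ori libraries of SUMF1 and HGSNAT overlapped, and SGSH in D14FL lay above Ori in every library.

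Among lipid and other hydrolases, PSAP, the precursor of the saposins that present glycolipids to their enzymes, had 678, 240.4 and 253 FPKM in Ori, 904, 709 and 606 FPKM in D14FL and 558, 682 and 560.2 FPKM in D30FL. It was low in Ori 2 and Ori 3 and stood at similar levels in Ori 1, D14FL and D30FL. NPC2, the soluble cholesterol carrier, had 824, 195 and 293 FPKM in Ori, 435, 422 and 565 FPKM in D14FL and 263, 407 and 289 FPKM in D30FL. In NPC2 Ori 1 was the highest library, and D30FL lay wholly below D14FL. GM2A, the activator of ganglioside GM2 breakdown, had 138, 35.3 and 66.1 FPKM in Ori, 215, 199 and 158 FPKM in D14FL and 72.2, 96.3 and 78.0 FPKM in D30FL, with D14FL above all Ori and all D30FL libraries (log2 change against Ori 1.06, SE 0.42, limma adjusted p = 0.0847). ASAH1, acid ceramidase, averaged 48.6 ± 26.9 FPKM in Ori, 95.8 ± 30.0 FPKM in D14FL and 81.9 ± 42.8 FPKM in D30FL (SD, n = 3 each). LIPA, the acid lipase of cholesteryl esters and triglycerides, averaged 25.5 ± 9.37 FPKM in Ori, 44.7 ± 10.7 FPKM in D14FL and 37.0 ± 16.8 FPKM in D30FL. Both enzymes had their highest mean in D14FL. NPC1, the membrane partner of NPC2, averaged 4.91 ± 0.803 FPKM in Ori, 7.45 ± 0.590 FPKM in D14FL and 8.20 ± 3.17 FPKM in D30FL. PLA2G15, a lysosomal phospholipase, averaged 1.23 ± 0.692 FPKM in Ori, 4.68 ± 0.757 FPKM in D14FL and 4.43 ± 4.51 FPKM in D30FL. In ASAH1, LIPA, NPC1 and PLA2G15 the D30FL and D14FL libraries overlapped.

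Of the membrane proteins, LAMP2 (TRINITY_DN34664_c0_g1_i3_3), a heavily glycosylated coat protein of the lysosomal membrane that also serves in autophagy, had 426, 168 and 288 FPKM in Ori, 535, 645 and 445 FPKM in D14FL and 204, 302 and 239.6 FPKM in D30FL. All 3 D14FL libraries were above all Ori and all D30FL libraries. The log2 change was 0.58 (SE 0.37, limma adjusted p = 0.158) in D14FL against Ori and -1.12 (SE 0.37, limma adjusted p = 1) in D30FL against D14FL. LAMP1, its close relative, shares the KEGG gene name with LAMP2 and so is no member of its own. A transcript matched to LAMP1 (TRINITY_DN41463_c0_g1_i8_1) had 9.56, 5.03 and 11.0 FPKM in Ori, 29.1, 27.1 and 44.1 FPKM in D14FL and 29.0, 87.3 and 11.3 FPKM in D30FL. This LAMP1 transcript was higher in all D14FL than in all Ori libraries (log2 change 1.50, SE 0.59, limma adjusted p = 0.0984), and D30FL 2 held its highest value of all. Of the 5 passing transcripts under this gene name, only the LAMP2 member and this one are described here.

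CD63, a tetraspanin of late endosomes and lysosomes, had 147, 86.4 and 124 FPKM in Ori, 164, 156 and 233 FPKM in D14FL and 136, 168 and 129 FPKM in D30FL. CD63 in D14FL lay above Ori in every library, with a log2 change of 0.25 (SE 0.31, limma adjusted p = 0.241), and its D30FL and D14FL libraries overlapped. LITAF, a zinc-binding protein of late endosomal membranes, averaged 81.3 ± 9.58 FPKM in Ori, 89.9 ± 30.7 FPKM in D14FL and 79.9 ± 11.9 FPKM in D30FL (SD, n = 3 each). LAPTM4A, a small membrane protein of lysosomes, averaged 33.0 ± 9.33 FPKM in Ori, 56.2 ± 1.46 FPKM in D14FL and 50.3 ± 13.5 FPKM in D30FL. LITAF overlapped between all groups, whereas LAPTM4A in D14FL lay above Ori in every library. CD68, a macrophage-associated relative of the LAMP proteins, had 10.4, 11.9 and 34.8 FPKM in Ori, 23.1, 19.3 and 30.3 FPKM in D14FL and 23.6, 51.7 and 14.2 FPKM in D30FL. The CD68 row is matched to LAMP1 in Swiss-Prot, so the identity is uncertain. ENTPD4, a nucleotidase, had 2.48, 4.88 and 4.28 FPKM in Ori, 7.87, 6.50 and 9.59 FPKM in D14FL and 12.4, 9.64 and 7.62 FPKM in D30FL, with D30FL above Ori in every library (log2 change 0.80, SE 0.35, limma adjusted p = 0.0796). ABCA2, a lipid transporter, averaged 2.76 ± 0.111 FPKM in Ori, 6.83 ± 1.81 FPKM in D14FL and 5.79 ± 1.08 FPKM in D30FL. Of the 18 membrane proteins, 11 were higher in all D14FL than in all Ori libraries (background 27.8%). Under median-of-ratios scaling 3 of the 18 were higher (background 16.1%), and under quantile normalization 6 were (background 15.1%). Lower in all D30FL than in all D14FL libraries were 3 membrane proteins, LAMP2 among them (background 4.46%).

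The 6 vacuolar proton pump genes had median log2 changes of 0.41 in D14FL against Ori, 0.18 in D30FL against Ori and -0.51 in D30FL against D14FL. ATP6V0C, the proteolipid ring subunit, had 160.1, 103 and 116 FPKM in Ori, 156, 201 and 197 FPKM in D14FL and 215, 250.3 and 130.3 FPKM in D30FL. ATP6AP1, an accessory subunit, had 11.9, 6.66 and 7.13 FPKM in Ori, 24.3, 21.6 and 35.8 FPKM in D14FL and 14.6, 29.9 and 12.4 FPKM in D30FL, a log2 change of 1.19 (SE 0.39, limma adjusted p = 0.0532) in D14FL against Ori. ATP6V0D1, which couples the pump's stalk to the ring, had 19.5, 15.1 and 24.4 FPKM in Ori, 41.5, 42.8 and 45.2 FPKM in D14FL and 30.5, 40.4 and 23.0 FPKM in D30FL, a change of 0.74 (SE 0.30, limma adjusted p = 0.0697). Both had D14FL above Ori in every library, and neither passed the threshold. ATP6V0B, a further ring subunit, averaged 22.4 ± 10.2 FPKM in Ori, 43.3 ± 4.45 FPKM in D14FL and 30.4 ± 9.61 FPKM in D30FL (SD, n = 3 each). ATP6V1H, a regulatory subunit of the soluble part, averaged 31.7 ± 8.66 FPKM in Ori, 39.5 ± 15.6 FPKM in D14FL and 37.6 ± 13.0 FPKM in D30FL.

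Among the genes that sort enzymes to lysosomes, the clathrin light chain CLTA had 244, 150.3 and 256 FPKM in Ori, 202, 168 and 231 FPKM in D14FL and 146, 116 and 209 FPKM in D30FL. The heavy chain CLTC averaged 73.6 ± 17.5 FPKM in Ori, 58.7 ± 3.30 FPKM in D14FL and 55.6 ± 9.67 FPKM in D30FL (SD, n = 3 each). AP1S1, an adaptor subunit of the trans-Golgi coat, averaged 70.4 ± 10.4 FPKM in Ori, 74.0 ± 8.16 FPKM in D14FL and 54.3 ± 23.9 FPKM in D30FL. CLTA, CLTC and AP1S1 all overlapped between D14FL and Ori and between D30FL and D14FL. SORT1, sortilin, a receptor that carries some lysosomal proteins, had 17.1, 9.27 and 18.7 FPKM in Ori, 33.3, 31.5 and 22.8 FPKM in D14FL and 19.9, 24.8 and 18.4 FPKM in D30FL, with D14FL above Ori in every library (log2 change 0.57, SE 0.33, limma adjusted p = 0.126). The other light chain, CLTB, averaged 13.5 ± 3.05 FPKM in Ori, 27.6 ± 9.03 FPKM in D14FL and 30.1 ± 16.4 FPKM in D30FL. The coat adaptor GGA1 averaged 5.99 ± 2.06 FPKM in Ori, 12.5 ± 1.20 FPKM in D14FL and 10.8 ± 1.23 FPKM in D30FL. The adaptor subunit AP1G1 averaged 4.17 ± 0.979 FPKM in Ori, 10.5 ± 1.74 FPKM in D14FL and 9.96 ± 4.75 FPKM in D30FL. CLTB, GGA1 and AP1G1 were each higher in all D14FL and in all D30FL than in all Ori libraries.

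The mannose 6-phosphate receptors were low transcripts. IGF2R, the large receptor, had 5.23, 2.15 and 3.12 FPKM in Ori, 5.11, 6.46 and 7.16 FPKM in D14FL and 4.77, 8.93 and 3.88 FPKM in D30FL. M6PR, the small one, had 2.40, 1.60 and 3.33 FPKM in Ori, 4.95, 5.69 and 5.77 FPKM in D14FL and 4.82, 4.16 and 2.13 FPKM in D30FL. In M6PR the D14FL libraries were above all Ori and all D30FL libraries, with log2 changes of 0.55 (SE 0.38, limma adjusted p = 0.169) against Ori and -0.50 (SE 0.38) for D30FL against D14FL. Of the 23 sorting and coat genes, 2 were lower in all D30FL than in all D14FL libraries (background 4.46%), and the median log2 changes were 0.08 for D14FL against Ori, -0.12 for D30FL against Ori and -0.14 for D30FL against D14FL.

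**Figure D2:**
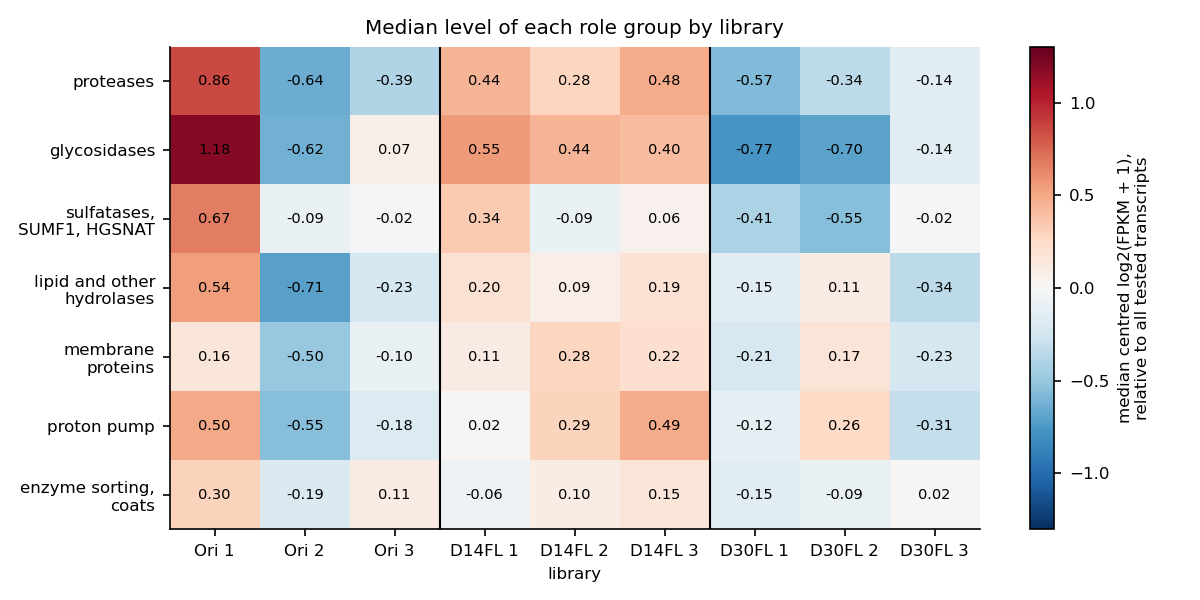
Median level of each role group in each library: log2(FPKM + 1) of every member was centred on its mean over the 9 libraries, the median was taken over the members of a group, and the median of all tested transcripts in that library was subtracted. Glycosidases stand at 1.18 in Ori 1 against -0.62 in Ori 2, and at -0.77 to -0.14 in D30FL against 0.40 to 0.55 in D14FL, whereas enzyme sorting and coat genes stay between -0.19 and 0.30.

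In D14FL against Ori, 63 of the 96 members lay above the median change of all tested transcripts. LGMN, CTSL, ATP6AP1, FUCA, GLB1 and GM2A were among those with a log2 change above 1 relative to that median. The adjusted test called 1 of 96 members, 1.04%, against a background of 2.77% of all tested transcripts called in either direction. At an unadjusted p under 0.05, 31 members (32.3%) were found, all higher, against 23.1% of all tested transcripts. In 38 members (39.6%) all D14FL libraries exceeded all Ori libraries, against 27.8% of all tested transcripts, and in 1 (1.04%) all were lower, against 6.7%. The median log2 change over the members was 0.19 relative to all tested transcripts, and over the proteases it was 0.43.

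These counts rested on the scaling and on the Ori libraries. Under median-of-ratios scaling 12 members were higher without overlap (background 16.1%) and 9 lower (background 14.8%). Under quantile normalization 21 were higher (background 15.1%) and 6 lower (background 14.1%), and 0 were called under either scaling. Without Ori 1, 64 members were higher without overlap (background 31.4%), 5 were called (CTSB, CTSL, GLB1, GM2A and LGMN; 5.21%, against 0.8% of all tested transcripts) and the median was 0.53; without Ori 2 the median was -0.01 and 0 were called. The number called was also 0 without Ori 3, D14FL 1, D14FL 2, D14FL 3 or D30FL 1, and was 8 without D30FL 2 (8.33%, against 7.29% of all tested transcripts) and 2 without D30FL 3 (2.08%, against 5.06%).

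In D30FL against Ori, the glycosidases had the lowest median, -0.80 on the log2 scale. The sulfatase group followed with -0.36 and the proteases with -0.30. The lipid and other hydrolases stood at 0.13, the membrane proteins at 0.13 and the pump at 0.18. No member passed the adjusted test in limma, against a background of 3.22% of all tested transcripts, and 9 (9.38%) had an unadjusted p under 0.05, against 24% of all tested transcripts. In 11 members (11.5%) all D30FL libraries exceeded all Ori libraries, against 20.8%, and in 3 (3.12%) all were lower, against 6.14%. Under median-of-ratios scaling 4 members were higher without overlap (background 12.5%) and 13 lower (background 12.1%), and under quantile normalization 3 were higher (background 11.6%) and 9 lower (background 12.7%), so that the lower members then outnumbered the higher ones. The median over the 96 members was -0.16, and without Ori 1 it was 0.06. Without D30FL 3, 2 members were called (AP1G1 and ENTPD4; 2.08%, against 12.4% of all tested transcripts), 29 were higher without overlap (background 36.5%) and 14 lower (background 11.4%). Without Ori 1, 30 were higher (background 24.0%), without Ori 3, 17 were higher (background 29.5%), and without Ori 2, 16 were lower (background 9.80%). D14FL against Ori and D30FL against Ori share the Ori libraries, and all 3 comparisons share libraries in pairs.

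In D30FL against D14FL, most proteases and many glycosidases stood lower in every D30FL fish. In 30 of the 96 members (31.2%) all D30FL libraries were below all D14FL libraries, against 4.46% of all tested transcripts, and in 0 were all higher, against 3.83%. By role these were 9 of 13 proteases, 8 of 16 glycosidases and 3 of 9 in the sulfatase group. Others were 3 of 11 lipid and other hydrolases, 3 of 18 membrane proteins, 2 of 6 pump genes and 2 of 23 sorting genes. CTSL, FUCA, GLA, CTSZ, GLB1 and LGMN had the log2 changes -2.08, -1.93, -1.92, -1.60, -1.53 and -1.50, with SE between 0.45 and 0.93. The medians were -0.95 over the glycosidases, -0.93 over the proteases and -0.38 over all members.

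No member passed the adjusted test (limma, adjusted p = 1 for each), and 1 of all 54200 tested transcripts did (0.00185%). At an unadjusted p under 0.05, 19 members (19.8%) were found, 19 of them lower, against 3.84% of all tested transcripts. The count without overlap was 29 under median-of-ratios scaling (background 4.07%) and 28 under quantile normalization (background 4.76%). Leaving out single libraries gave 31 to 55 (backgrounds 6.53% to 15.6%), the highest without D30FL 2 (background then 15.6%).

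**Figure D3:**
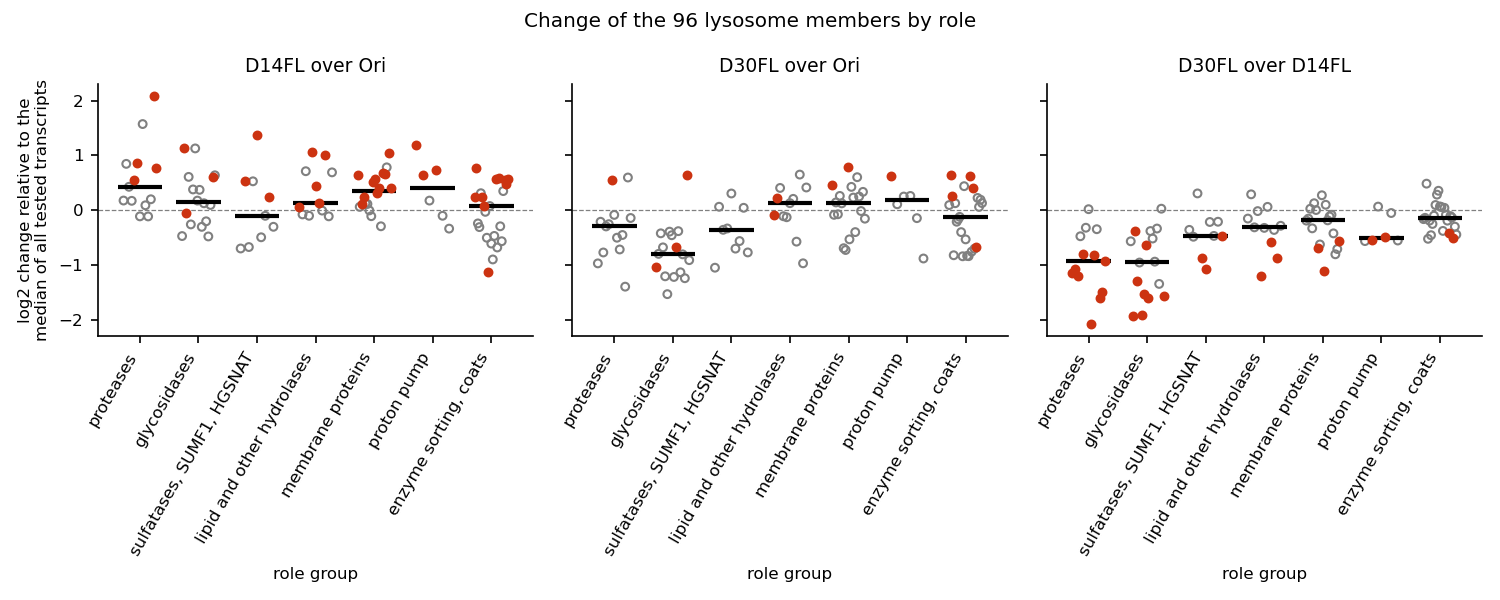
Log2 change of each of the 96 members, relative to the median of all tested transcripts, by role group in the 3 comparisons, with the group median as a line. Filled points are members whose libraries do not overlap between both groups before the median is subtracted, and open points are the others; in D30FL over D14FL, 9 of 13 proteases and 8 of 16 glycosidases are filled and lie below 0.

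The remaining transcripts of the same gene names were followed as well, since 53 of the 96 members had more than 1 transcript above the minimum. Of all 219 passing pathway transcripts, the adjusted test called 6 higher in D14FL against Ori (2.74%, against 2.17% of all tested transcripts called higher) and 0 lower. In D30FL against Ori it called 3 higher (1.37%, against 2.49%) and 1 lower (0.457%, against 0.732%), and in D30FL against D14FL it called 0, with 49 of 219 (22.4%) lower without overlap, against 4.46%. The called transcripts that are no members and are named here were named because of their values. Their rises and falls are log2 changes relative to the median change of all tested transcripts. The limma p-values given with them come from before that subtraction.

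A further CTSL transcript (TRINITY_DN33986_c0_g1_i12_1, best match cathepsin L of Acipenser sinensis) had 647, 116 and 214 FPKM in Ori, 1613, 1710.4 and 1375 FPKM in D14FL and 479, 1321 and 379 FPKM in D30FL, and rose in D14FL against Ori by 2.24 (SE 0.61, limma adjusted p = 0.0448). In it Ori 1 was below all D14FL libraries, unlike in the member. A further LGMN transcript (TRINITY_DN31362_c1_g4_i1_3) had 118, 18.5 and 29.7 FPKM in Ori, 309.6, 275 and 307 FPKM in D14FL and 68.8, 148 and 103 FPKM in D30FL and rose by 2.46 (SE 0.55, limma adjusted p = 0.0265). In the LGMN transcript D14FL lay above Ori in every library, as in its member. A further transcript of SLC17A5, the sialic acid exporter (TRINITY_DN36428_c0_g1_i1_2), had 6.28, 2.74 and 3.62 FPKM in Ori, 17.6, 14.6 and 19.0 FPKM in D14FL and 11.9, 11.0 and 7.04 FPKM in D30FL and rose by 1.46 (SE 0.35, limma adjusted p = 0.0251). A further LITAF transcript (TRINITY_DN37010_c0_g1_i14_1) had 5.32, 4.86 and 2.31 FPKM in Ori, 19.5, 31.5 and 15.7 FPKM in D14FL and 15.1, 29.2 and 17.5 FPKM in D30FL and rose by 1.78 (SE 0.39, limma adjusted p = 0.0217). Of the alternative settings that gave a value, the call held in 6 of 17 for the CTSL transcript, 10 of 17 for LGMN, 9 of 17 for SLC17A5 and 11 of 17 for LITAF.

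In D30FL against Ori, the same LITAF transcript rose by 1.69 (SE 0.39, limma adjusted p = 0.0253). A further CD63 transcript (TRINITY_DN43940_c0_g1_i1_1) had 1.07, 0.440 and 0 FPKM in Ori, 2.83, 2.04 and 3.36 FPKM in D14FL and 4.70, 3.28 and 3.34 FPKM in D30FL and rose by 1.35 (SE 0.40, limma adjusted p = 0.0431). A transcript under the name CD164, whose Swiss-Prot match is porimin (TRINITY_DN30362_c0_g1_i1_3), had 20.9, 13.0 and 15.5 FPKM in Ori, 56.4, 40.5 and 46.7 FPKM in D14FL and 42.1, 84.4 and 32.5 FPKM in D30FL and rose by 1.16 (SE 0.37, limma adjusted p = 0.0469). In these transcripts every D30FL library exceeded every Ori library. A further GLA transcript (TRINITY_DN34501_c0_g1_i9_3) had 37.7, 23.8 and 28.1 FPKM in Ori, 22.6, 15.3 and 14.3 FPKM in D14FL and 7.11, 8.07 and 12.8 FPKM in D30FL, all D30FL below all Ori libraries. Relative to the median change of all tested transcripts this GLA transcript fell by 1.97 (SE 0.33, limma adjusted p = 0.0326). The calls held in 10 of 17 settings for LITAF, 3 of 16 for CD63, 4 of 17 for CD164 and 9 of 17 for GLA. Transcripts of 1 gene name may be alleles, splice forms or copies in this polyploid lineage and may share reads, so each value belongs to the transcript named.

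Outside the pathway list, genes that control lysosome genes or feed the lysosome were read from lists. Of 24 regulators, which include the transcription factor TFEB and its relatives, 20 were matched and 0 were called in any comparison. Of all tested transcripts, 2.77% were called in D14FL against Ori, 3.22% in D30FL against Ori and 0.00185% in D30FL against D14FL. With shares this small, 0 of 20 does not set the regulators apart. TFEB had 8.63, 2.49 and 4.41 FPKM in Ori, 2.88, 3.95 and 3.35 FPKM in D14FL and 2.81, 2.93 and 2.36 FPKM in D30FL. TFE3 had 0.605, 1.52 and 0.562 FPKM in Ori, 4.01, 2.74 and 1.06 FPKM in D14FL and 0.576, 6.03 and 1.21 FPKM in D30FL. MITF had 0.701, 1.84 and 1.86 FPKM in Ori, 2.21, 1.53 and 2.53 FPKM in D14FL and 2.99, 4.54 and 1.58 FPKM in D30FL. TFEB was highest in Ori 1 and similar in the later libraries, and all 3 were low transcripts.

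Of 15 genes of protein uptake by fish enterocytes, 14 were matched and 0 were called in any comparison. The shares of all tested transcripts called were 2.77% (D14FL against Ori), 3.22% (D30FL against Ori) and 0.00185% (D30FL against D14FL). CUBN, the receptor cubilin, had 37.2, 1.99 and 3.94 FPKM in Ori, 22.5, 41.9 and 31.3 FPKM in D14FL and 11.0, 11.3 and 10.1 FPKM in D30FL. AMN, amnionless, which anchors cubilin in the membrane, had 222, 27.8 and 41.5 FPKM in Ori, 116, 90.6 and 68.8 FPKM in D14FL and 17.3, 13.0 and 33.9 FPKM in D30FL. In CUBN and AMN, Ori 1 stood far above Ori 2 and Ori 3. DAB2, the endocytic adaptor, had 11.9, 1.41 and 3.81 FPKM in Ori, 15.2, 34.7 and 14.9 FPKM in D14FL and 3.67, 10.1 and 7.88 FPKM in D30FL. LRP2, megalin, a large scavenger receptor of endocytosis, had 40.4, 1.65 and 1.68 FPKM in Ori, 29.0, 37.0 and 44.0 FPKM in D14FL and 15.9, 7.76 and 24.7 FPKM in D30FL. All 4 were higher in Ori 1 than in Ori 2 and Ori 3, and lower in every D30FL than in every D14FL library, the order also seen in CTSL. LRPAP1 and VPS11 shared this order by narrow margins, and the remaining matched genes of the list did not. In LRPAP1 the lowest D14FL library had 48.1 FPKM and the highest D30FL library 48.0 FPKM. In VPS11 the Ori libraries had 9.23, 8.11 and 7.58 FPKM, so Ori 1 lay close to the others and below all D14FL libraries. RAB5A (12.0, 13.4 and 20.0 FPKM in Ori) and EEA1 (0.919, 1.81 and 1.83 FPKM) were lowest in Ori 1. RAB11A was higher in all D14FL and in all D30FL than in all Ori libraries, and its D30FL and D14FL libraries overlapped. The log2 changes in D30FL against D14FL were -1.44 for CUBN, -2.12 for AMN, -1.44 for DAB2 and -1.25 for LRP2 (SE 0.59 to 0.86, limma adjusted p = 1 for each), and 7 of the 14 matched genes were lower without overlap, against 4.46% of all tested transcripts. In D14FL against Ori, CUBN and LRP2 passed the adjusted test in 1 of 18 alternative settings each, the one without Ori 1 (lowest adjusted p = 0.00955 and 0.00723).

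**Figure D4:**
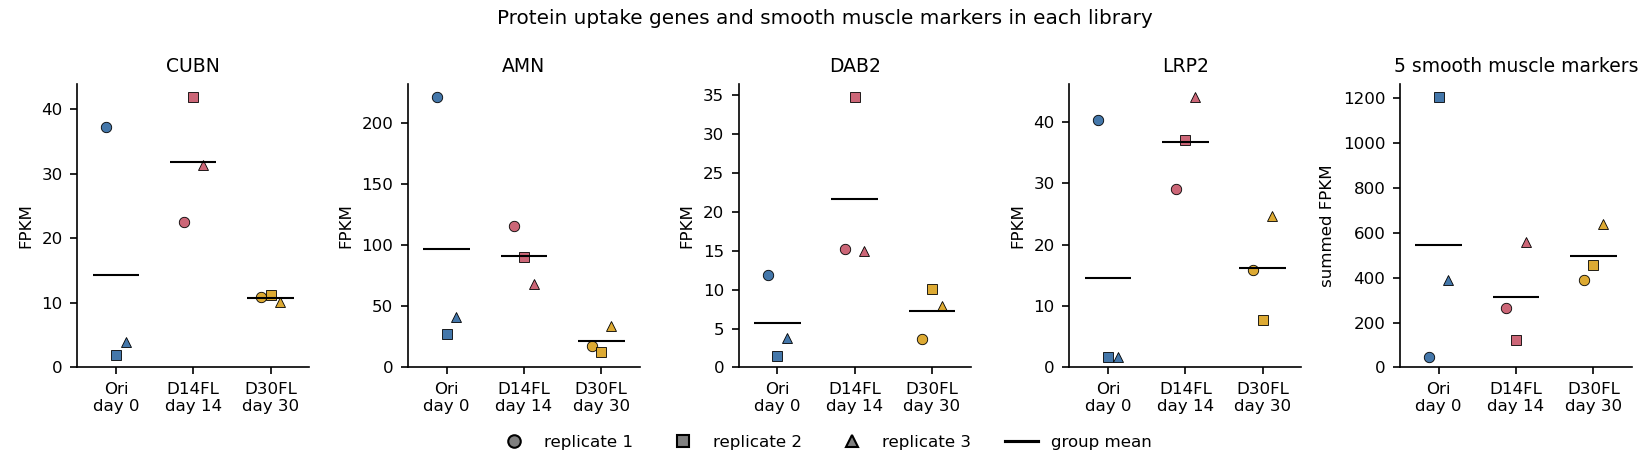
FPKM of 4 protein uptake genes and the summed FPKM of 5 smooth muscle markers in each library, on linear axes that start at 0, by group in order of day, with 1 point per fish and the group mean as a line. CUBN, AMN and LRP2 are high in Ori 1 and in D14FL, whereas DAB2 in Ori 1 lies below all D14FL libraries. All 4 genes are lower in all D30FL than in all D14FL libraries, and the muscle sum is lowest in Ori 1 and highest in Ori 2.

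Markers of other cells of the gut wall moved between the same libraries. The summed FPKM of the 5 matched smooth muscle markers of 7 listed (ACTA2, MYH11, CNN1, DES and LMOD1) was 44.6, 1204 and 388 in Ori, 265, 122 and 560.0 in D14FL and 391, 459 and 641 in D30FL. Ori 1 was the lowest and Ori 2 the highest of all 9, the reverse of their order in the hydrolases. DES, which marks muscle cells, had 3.09, 177 and 66.6 FPKM in Ori 1, Ori 2 and Ori 3. Of the 9 matched enterocyte markers of 12 listed, FABP2, the intestinal fatty acid-binding protein, had 1668, 3052 and 4693 FPKM in Ori, 1294, 1812 and 1691 FPKM in D14FL and 1569, 302 and 2273 FPKM in D30FL, and the other 8 summed to 190.1, 318 and 541 FPKM in Ori, 672, 1088 and 984 in D14FL and 874, 929 and 664 in D30FL. FABP2 overlapped between D14FL and Ori, whereas the sum of the other 8 was higher in all D14FL than in all Ori libraries and lowest in Ori 1. FABP2 was set apart after its values were seen. Of the 8 enterocyte markers that passed the minimum FPKM, FABP2 included, 5 were higher without overlap in D14FL against Ori (62.5%, against 27.8% of all tested transcripts).

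The 7 matched macrophage markers of 10 listed (CSF1R, MARCO, CD68, MPEG1, C1QA, C1QB and LYZ) summed to 204, 129 and 233 in Ori, 451, 297 and 672 in D14FL and 391, 1964 and 368 in D30FL, of which LYZ, lysozyme, made up the largest share, and 0 of the 7 were at 0 in any library. CD68 is itself a member. CSF1R, the receptor that defines macrophages, had 1.53, 2.43 and 1.67 FPKM in Ori, 5.21, 7.97 and 12.5 FPKM in D14FL and 7.01, 18.5 and 3.51 FPKM in D30FL. Unlike the summed hydrolases, the macrophage sum in Ori 1 lay below that in Ori 3, and D30FL 2 held its highest value, with 1793 from LYZ. Ori 1 was below Ori 3 in CSF1R, MARCO, CD68, MPEG1 and LYZ. C1QA (16.1, 13.8 and 13.8 FPKM in Ori) and C1QB (19.8, 15.4 and 13.3 FPKM) were instead highest in Ori 1 of the Ori libraries. D30FL 2 was the highest library for CSF1R, CD68 and LYZ, D14FL 3 for C1QA and C1QB, Ori 2 for MARCO and Ori 3 for MPEG1. The T cell sum (5 of 8 matched) was 17.2 to 34.4 in Ori, 9.82 to 21.7 in D14FL and 9.29 to 16.0 in D30FL. The pancreas sum (6 of 7 matched) was 74.5 to 121 in Ori, 408 to 5928 in D14FL and 1065 to 2919.7 in D30FL. Further sums are given for Ori, D14FL and D30FL in that order. The granulocyte sum (6 of 8 matched) was 45.5 to 74.6, 31.8 to 56.8 and 41.0 to 71.9. The B and plasma cell sum (3 of 8) was 103 to 129, 185 to 252 and 186 to 244. The goblet cell sum (3 of 5) was 51.6 to 149.9, 112 to 187 and 50.8 to 149.3. The endothelium sum (3 of 6) was 3.12 to 7.17, 9.02 to 12.8 and 6.40 to 21.1. The liver sum (6 of 6) was 11.8 to 33.9, 25.8 to 77.0 and 14.9 to 22.4, so D30FL lay wholly below D14FL. The macrophage, pancreas, B and plasma cell and endothelium sums were higher in all D14FL than in all Ori libraries. In D30FL the macrophage, pancreas and B and plasma cell sums were likewise above all Ori libraries, and the T cell sum was below them. XBP1 made up most of the B and plasma cell sum, with 116, 88.6 and 106 FPKM in Ori and 175, 248 and 187 FPKM in D14FL. The other matched genes of that list, CD79A and IRF4, overlapped between D14FL and Ori. In D14FL against Ori the log2 changes were 0.58 for XBP1, -1.38 for CD79A and -0.23 for IRF4. The part of these cell types in the values of the members was not tested.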

How the data were processed

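The authors deposited 1 table of FPKM values for 59331 assembled transcripts with their annotation. The unit FPKM follows the name of the deposited table. Per the labels' protocols, mRNA was captured on oligo(dT) beads, with digestion of the second cDNA strand. Cutadapt 1.9 and the mouse build mm10 are named in the submitters' processing notes with no role; assembler, aligner and quantification tool were not stated in labels or headers. Read depth is unknown, so the precision rests on 3 fish per group.

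Members were taken by KEGG pathway and gene name, with 3 or more libraries at an FPKM of 1 or higher. The members and lists were chosen with earlier results of these data known. Changes in log2(FPKM + 1) were tested in limma 3.58.1 (R 4.3.3) with a trended variance over all 9 libraries, group as the only term and Benjamini-Hochberg adjustment over 54200 transcripts; small values are understated by the pseudocount of 1. Only the limma fit was tried on simulated data, with independent noise and known changes. The choice of members, the overlap counts and the scalings were not simulated. Named were members called, in each role the 4 highest by mean and the 3 with the smallest p, and a list of well-known lysosome genes. LAMP1 entered through a transcript matched to it. Alternatives changed 1 choice at a time. Replicate numbers name different fish and were not used as pairs. A few members are counted but not reported by name here.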

Additional observations from a re-analysis of the deposited data

How the results depend on the processing

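The number of lysosome members called in D14FL against Ori (1) moved to 0 with a pseudocount of 0.1, with no filter on low values, under median-of-ratios scaling, under quantile normalization, with the replicate number as a block and without a variance trend. It moved to 3 (3.125%, against 2.77% of all tested transcripts) with FPKM summed over the transcripts of a gene name. At a mean FPKM of at least 5 it was 4 of the 76 members left (5.26%, against 8.21%). With only the 2 groups compared it was 6 (6.25%, against 8.55%). It lay between 0 and 8 when single libraries were left out, where the 8 were 8.33%, against 7.29%. In D30FL against Ori the number called was 0, and it was 1 of 76 at a mean FPKM of at least 5 (1.32%, against 9.13%). Without single libraries it was 0 to 2, where the 2 were 2.08%, against 12.4%. In D30FL against D14FL the number called was 0 in every alternative. The median change of the members lay between -0.0129 and 0.53 (D14FL against Ori) and between -0.41 and 0.0637 (D30FL against Ori) without single libraries, and stayed below 0 in D30FL against D14FL (-0.46 to -0.31). Chosen after seeing the data, the counts of members without overlap were repeated under both scalings and without each library. Members higher without overlap in D14FL against Ori numbered 12 under median-of-ratios scaling (background 16.1%) and 21 under quantile normalization (background 15.1%). Lower were 9 (background 14.8%) and 6 (background 14.1%). Without single libraries 39 to 64 were higher (backgrounds 31.4% to 36.3%) and 1 to 5 lower (backgrounds 7.98% to 12.2%). In D30FL against Ori, 4 were higher (background 12.5%) and 13 lower (background 12.1%) under median-of-ratios scaling. Under quantile normalization 3 were higher (background 11.6%) and 9 lower (background 12.7%). Without single libraries 11 to 30 were higher (backgrounds 24.0% to 36.5%) and 3 to 16 lower (backgrounds 7.51% to 11.4%). Members lower without overlap in D30FL against D14FL numbered 31 to 55 without single libraries (backgrounds 6.53% to 15.6%). The cause of these shifts was not tested. Same-numbered libraries had correlations of their deviations from the group means between -0.315 and 0.0843 over 9 pairs, and other pairs between -0.0913 and 0.277 over 18. Deviations from a mean of 3 libraries are tied to each other, so these values cannot decide whether the number pairs the fish. The numbers were not used as pairs because the fish were netted at random on each day. With the block the number called was 0 in all 3 comparisons (backgrounds 0.581%, 0.659% and 0.00185%).

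With 3 fish per group and unknown depth, a p above the threshold does not show that a member was alike between days. For the members, Ori 1 was most often the highest library of day 0 (64 of 96) and Ori 2 most often the lowest (74 of 96). By role this differed: Ori 1 was the highest in 12 of 13 proteases but in 9 of 18 membrane proteins. Among the 23 sorting and coat genes Ori 1 was the highest in 9 and Ori 3 in 11. FPKM is a share of the library, so a few abundant transcripts bear on all values.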
